A study of Mus musculus with 48 samples.

Results

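The non-stretched myoblasts were C2C12 cells, an established mouse line that grows as undifferentiated muscle precursors. They were plated on flexible collagen I-coated wells and kept unstretched beside a stretched culture, as the control of a study of mechanical stretch. Their 12 libraries, 4 each at 1 h, 3 h and 6 h, were chosen by label from the 48 libraries of the series, and the stretched columns were not used. Each time held 2 wells of experiment B27 (replicates 7 and 8) and 2 wells of experiment B31 (replicates 9 and 10), and all groups shared the same line, plates and serum-containing growth medium without any agent or transgene. One established line was used, so no separate animals or lines stand behind the replicates. By label these groups differ only in time, and the comparisons ask how far the control culture itself moved over the hours of the experiment. The clock time of collection, and whether the 3 times were started together or ended together, are not given in the sources used here. A difference between times therefore cannot be told apart from one of collection hour, culture age or handling.

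Myoblasts express the regulators Myod1 and Myf5, divide while serum is present, and switch on Myog and the contractile genes when they leave the cell cycle and fuse. Cultured cells also build and shed matrix, read density and tension through SRF and the YAP co-activator, pass Notch signals between neighbours, and use up the glucose and growth factors of their medium. They carry a circadian clock, in which Arntl and Clock drive the Per, Cry and Nr1d genes, whose products feed back on them.

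The libraries held 58751301 to 68856205 counts at 1 h, 48447318 to 59115866 at 3 h and 54065776 to 64699502 at 6 h. The summed level of 6 myoblast markers was 9530 to 10600 CPM (counts scaled to a common library total) in all 12 libraries, while 5 macrophage markers summed to 1.08 to 1.5 CPM, with Adgre1 and Tyrobp at 0 throughout. Epithelial markers summed to 15.3 to 19.6 CPM at 1 h, 16.5 to 17.9 at 3 h and 13.5 to 15.1 at 6 h, so that the 6 h libraries lay below all others. Among them the keratin gene Krt14 fell by 0.34 from 1 h to 6 h (adjusted p = 0.0128). Chondrocyte and osteoblast markers summed to 146 to 168 CPM at 1 h, 148 to 162 at 3 h and 148 to 154 at 6 h. Among these Sp7, an osteoblast transcription factor, was low at 0.373 to 0.464 CPM at 1 h and 0.12 to 0.288 at 6 h, with a log2 fold change of -1.11 (SE 0.289, adjusted p = 0.0383). That call was lost without 1 h replicates 7, 8 or 10, 3 h replicate 8 or 6 h replicates 8, 9 or 10, without the experiment term and with the wells summed. The part of these markers in the falls by 6 h given below was not tested. One library stood apart in composition: 1 h replicate 7 had 3.66% of its counts in a ribosomal RNA gene, against 0.65% to 2.11% in the other 11. Another, 1 h replicate 9, had a GC-dependent tilt of -0.212 (log2, the GC-richest of 10 gene classes against the poorest), against -0.0923 to 0.111 elsewhere. In a principal component analysis of log2 CPM, the times overlapped on the first component (14.8% of the variance). The second (12.2%) held the 3 h libraries at -20.7 to -5.07 and the 6 h libraries at 8.84 to 16.4, while the 1 h libraries, at -10.5 to 9.75, overlapped both. The 2 wells of one experiment and time differed by 2.74 to 87.5 times the chi-square that counting alone gives, so the wells of no such pair were copies.

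By the quasi-likelihood test of edgeR, 1429 of 15213 genes (9.39%) differed between the 3 times at a Benjamini-Hochberg adjusted p under 0.05. The mean was highest at 3 h for 719 of them (50.3%, against 32.7% of all genes tested), lowest at 3 h for 250, rising through the times for 253 and falling for 207. Between 1 h and 3 h 612 genes rose (4.02%) and 208 fell (1.37%), from 3 h to 6 h 193 rose (1.27%) and 455 fell (2.99%), and from 1 h to 6 h 377 rose (2.48%) and 314 fell (2.06%). Here and below, rose and fell mean an adjusted p under 0.05, and comparisons that share a time share its libraries. The shares of all genes just given are those to set beside the counts of list members below. Most changes were small. With a log2 fold limit of 0.58 added, the calls were 15 higher (0.0986%) and 7 lower (0.046%) at 3 h against 1 h, 9 higher (0.0592%) and 59 lower (0.388%) at 6 h against 3 h, and 9 higher (0.0592%) and 31 lower (0.204%) at 6 h against 1 h. The experiment is a fixed term, so the overall difference between the 2 experiments is not part of the spread behind these p-values. That spread holds the differences between wells of one experiment and time, which may share a plate. It also holds how far the time change differs between the 2 experiments.

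The time difference itself was tested for dependence on the experiment, and edgeR called 0 genes (0%), with 754 at an unadjusted p under 0.05 (4.96%) and a smallest adjusted p of 0.122. DESeq2 called 9. Each experiment alone, with 6 libraries, gave unequal counts. At 3 h against 1 h 642 genes rose and 350 fell in B27, while in B31 edgeR found 0 and 0, with 1172 at an unadjusted p under 0.05. From 3 h to 6 h 66 rose and 220 fell in B27, and 4 rose and 79 fell in B31. At 6 h against 1 h the counts were 566 and 619 in B27 and 1 and 2 in B31. Of the genes past the test in B27, 92.5%, 95.8% and 80.8% had the same sign in B31 in the 3 comparisons, against 63.5%, 61.1% and 59.1% of all genes, and the experiments share no library.

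Leaving out single libraries moved the counts. The genes that rose from 1 h to 3 h numbered 169 without 1 h replicate 7 and 951 without 1 h replicate 9, and also moved over 1.5 times without 1 h replicate 8 or 3 h replicates 8 or 9. The genes that fell from 3 h to 6 h numbered 266 without 3 h replicate 9 or 6 h replicate 10 and 705 without 1 h replicate 9, and also moved that far without 6 h replicate 9. Genes that rose from 1 h to 6 h numbered 129 without 1 h replicate 7 and 834 without 1 h replicate 9, and also moved that far without 1 h replicate 8 or 6 h replicates 7 or 8. In the other direction, the genes that fell from 1 h to 3 h numbered 32 without 1 h replicate 7 and 627 without 1 h replicate 9, and moved that far also without 1 h replicates 8 or 10 or 3 h replicates 8, 9 or 10. Those that rose from 3 h to 6 h numbered 74 without 3 h replicate 9 and 467 without 1 h replicate 9, and moved that far also without 3 h replicates 8 or 10 or any 6 h library. Those that fell from 1 h to 6 h numbered 133 without 1 h replicate 7 and 735 without 1 h replicate 9, and moved that far also without 1 h replicate 8 or 6 h replicates 7 or 8.

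**Figure D1:**
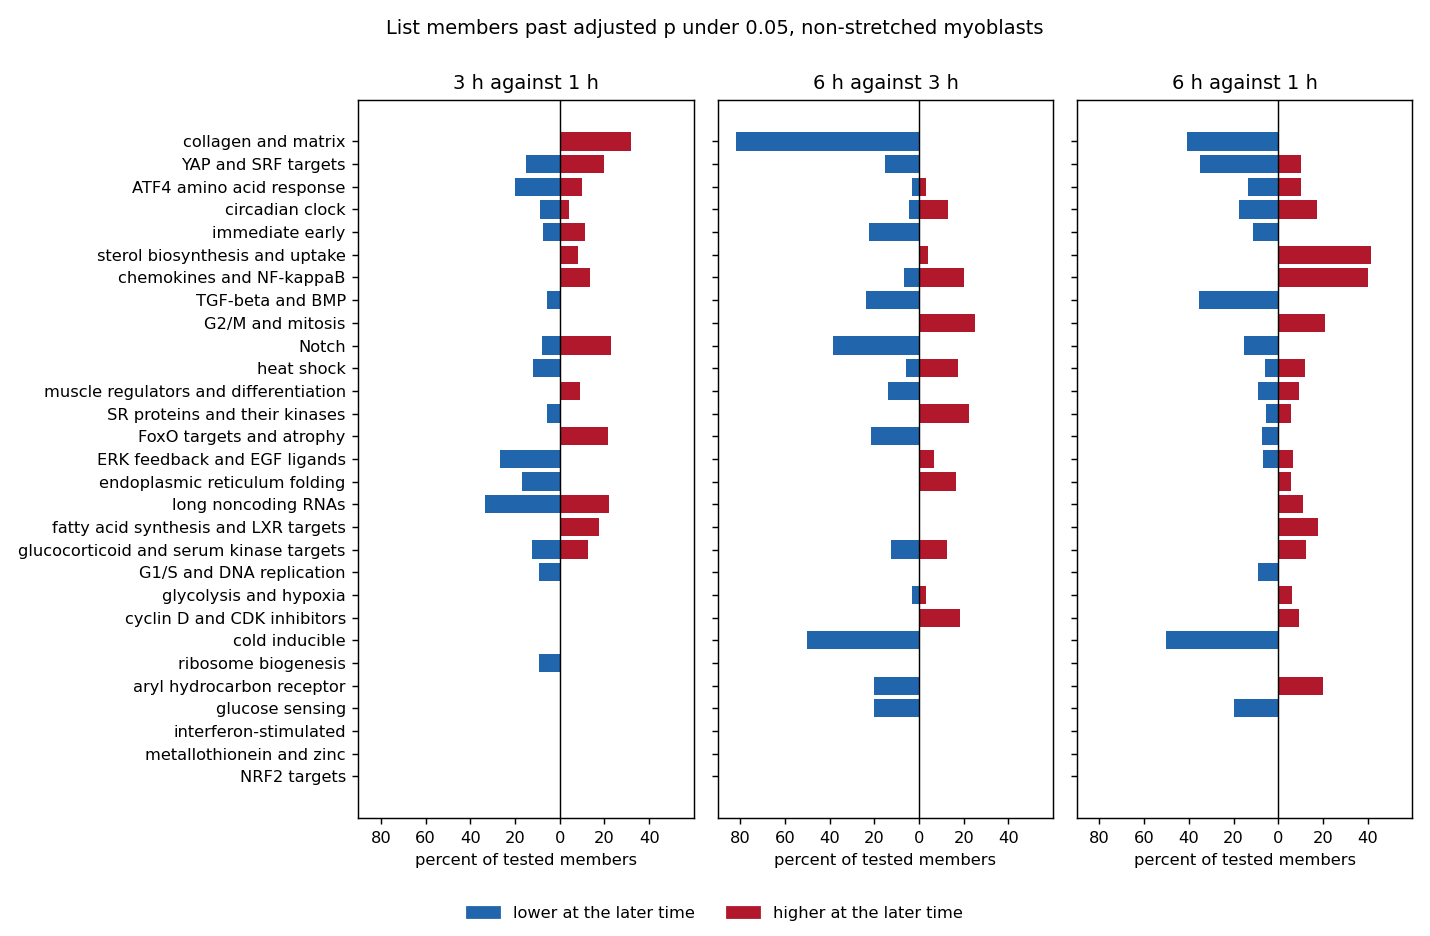
Percent of the tested members of each gene list that passed an adjusted p of 0.05, with members lower at the later time drawn to the left and members higher to the right, for the 3 comparisons of non-stretched myoblasts. In the collagen and matrix list 18 of 22 members fell from 3 h to 6 h, and the NRF2, interferon and metallothionein lists have no bar.

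Most genes of the collagen and matrix list, which encode the scaffold around cells, fell from 3 h to 6 h, and fewer had risen before. Of 22 tested members 7 rose from 1 h to 3 h and 0 fell, with a median log2 fold change of 0.12 against -0.0032 over all genes tested. From 3 h to 6 h 18 of the 22 fell and 0 rose, with a median of -0.24 against 0.0014. All 22 were lower at 6 h than at 3 h in B27 and in B31, whose medians were -0.22 and -0.24, and B31 alone gave 5 that passed. From 1 h to 6 h 9 fell, with a median of -0.14. The fall from 3 h to 6 h covered 14 to 19 members when any one of the 12 libraries was left out. The rise from 1 h to 3 h was less steady, with 2 members without 1 h replicate 7, fewer than 5 without 1 h replicate 8 or 3 h replicate 9, and at most 10.

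Col6a2 and Col1a1 passed the test in both steps. Values are given in the order of replicates 7, 8, 9 and 10, as CPM scaled by TMM factors. Col6a2 (chr10:76595762-76623630, minus strand), a chain of the collagen VI that links cells to their matrix, measured 7.03, 6.67, 6.31 and 7.48 CPM at 1 h, 10.1, 10.2, 9.64 and 9.21 at 3 h, and 7.66, 7.49, 4.97 and 4.89 at 6 h. All 4 libraries at 3 h lay above the other 8. The log2 fold change was 0.51 (SE 0.0994, adjusted p = 0.00962, edgeR) from 1 h to 3 h and -0.66 (SE 0.101, adjusted p = 0.00154) from 3 h to 6 h, and without 1 h replicate 7 the first had an adjusted p of 0.0532. Col1a1 (chr11:94936224-94953042, plus strand), a chain of collagen I, measured 51.6, 51.1, 41.2 and 56 CPM at 1 h, 62.9, 65, 58.7 and 61.3 at 3 h, and 44.6, 46.4, 41.2 and 42.8 at 6 h. Again the 3 h libraries did not overlap the others, with a rise of 0.31 (adjusted p = 0.0105) and a fall of -0.50 (adjusted p = 0.000339).

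Fn1, which encodes fibronectin, averaged 4200 ± 327, 4960 ± 483 and 3610 ± 321 CPM at the 3 times in turn (SD over 4 libraries, as for all means here), and only the fall from 3 h to 6 h passed (-0.46, adjusted p = 0.00179). The collagen crosslinking enzyme Loxl2 averaged 103 ± 3.32, 111 ± 3.44 and 86.3 ± 2.27 CPM, and its fall of -0.36 from 3 h to 6 h had an adjusted p of 4.06e-06. The crosslinking enzyme Lox fell by 0.23 (adjusted p = 0.000107), the protease inhibitor Timp3 fell by 0.20 (adjusted p = 0.000209), and the gelatinase Mmp2 rose by 0.19 and then fell by 0.30 (adjusted p = 0.018 and 0.000812), the rise being lost without 1 h replicates 7 or 8 or 3 h replicate 9. Postn (chr3:54361109-54391037, plus strand), for the matricellular protein periostin, measured 2.87, 2.22, 3.15 and 2.82 CPM at 3 h and 1.25, 1.15, 2.23 and 1.72 at 6 h. Both 6 h wells lay below both 3 h wells in each experiment, as the rule that named Postn required. The fall was -0.82 (SE 0.134, adjusted p = 0.00262).

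Fndc1 and Dcn, which are not on that list, were named by the rule on fold changes. Fndc1 (chr17:7738569-7827302, minus strand), a protein with fibronectin type III domains, measured 3.47, 3.02, 4.09 and 4.14 CPM at 1 h, 5.48, 5.68, 6.06 and 6.05 at 3 h, and 4.21, 4.25, 3.35 and 3.84 at 6 h. No 3 h library overlapped another time, and the changes were 0.66 (SE 0.0998, adjusted p = 0.00339) and -0.57 (SE 0.0998, adjusted p = 0.00402). Dcn (chr10:97479609-97518143, plus strand), for the collagen-binding proteoglycan decorin, measured 3.18, 3.05, 4.86 and 5.02 CPM at 1 h, 4.76, 4.06, 7.65 and 8.49 at 3 h, and 3.24, 3.39, 4.13 and 4.22 at 6 h. The B31 wells lay above the B27 wells at each time. Within each experiment both 3 h wells lay above the other 4, which the naming rule required against 1 h. The changes were 0.61 (SE 0.0968, adjusted p = 0.00391) and -0.70 (SE 0.0982, adjusted p = 0.000812).

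By the rule used to name genes, the largest fall from 3 h to 6 h was that of Spon2 (chr5:33198184-33218455, minus strand), for the secreted matrix protein spondin 2. It measured 4.64, 3.67, 6.11 and 7 CPM at 1 h, 7.51, 5.76, 9.05 and 8.23 at 3 h, and 3.38, 3.72, 2.63 and 3.21 at 6 h. The 3 h and 6 h libraries did not overlap, with a log2 fold change of -1.22 (SE 0.156, adjusted p = 0.000394). Igfbp4 (chr11:99041244-99054392, plus strand), for a secreted protein that binds insulin-like growth factors, measured 2.03, 2.43, 2.95 and 4.05 CPM at 1 h, 3.87, 2.68, 4.74 and 3.98 at 3 h, and 1.73, 1.85, 1.75 and 2.06 at 6 h. All 6 h libraries lay below all 3 h libraries (-1.03, SE 0.151, adjusted p = 0.0011). Vsir (chr10:60346851-60372684, plus strand), for a membrane protein known as an immune checkpoint, measured 3.45, 2.37, 3.56 and 3.29 CPM at 3 h and 1.63, 2.01, 1.43 and 1.42 at 6 h, again without overlap (-0.95, SE 0.161, adjusted p = 0.00303).

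**Figure D2:**
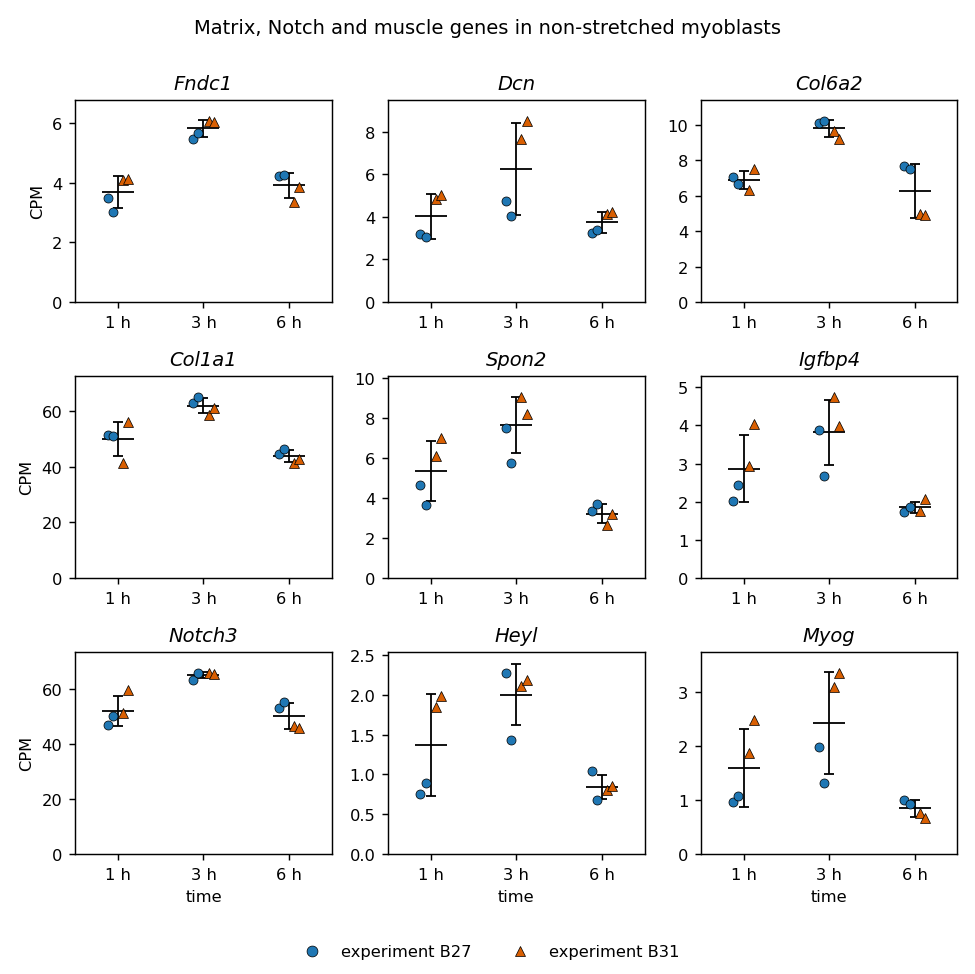
CPM of 9 genes in each of the 12 non-stretched myoblast libraries at 1 h, 3 h and 6 h, circles for experiment B27 and triangles for B31, with the mean and SD of the 4 libraries. For Fndc1, Col6a2, Col1a1 and Notch3 all 4 libraries at 3 h lie above the other 8, and for Myog the 6 h libraries lie between 0.669 and 1.01 CPM, below all 3 h libraries.

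The rise to 3 h moved with transcript length. Genes were split into 10 classes of equal size by their longest annotated transcript. Of the longest class (6856 to 123179 bases, 1107 genes) 27.6% rose and 0.361% fell from 1 h to 3 h, with a median of 0.09, while in the shortest class 0.541% rose and 2.16% fell. In the longest class 9.3% fell from 3 h to 6 h, and 7.14% rose from 1 h to 6 h. The tilt of each library, the median log2 deviation of the longest against the shortest class, was -0.124 to -0.0019 at 1 h, -0.0138 to 0.123 at 3 h and -0.0295 to 0.0437 at 6 h. With an offset for length and GC content, chosen after seeing the data, 452 genes rose and 384 fell from 1 h to 3 h, so that 54.1% of them were higher, against 74.6% without it. From 3 h to 6 h 482 rose and 579 fell (45.4% higher, against 29.8%), and from 1 h to 6 h 620 rose and 501 fell (55.3% higher, against 54.6%). With this offset 6 matrix genes rose and 1 fell from 1 h to 3 h, 18 fell from 3 h to 6 h and 12 fell from 1 h to 6 h. The part of RNA quality or library preparation in the tilt was not tested.

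**Figure D3:**
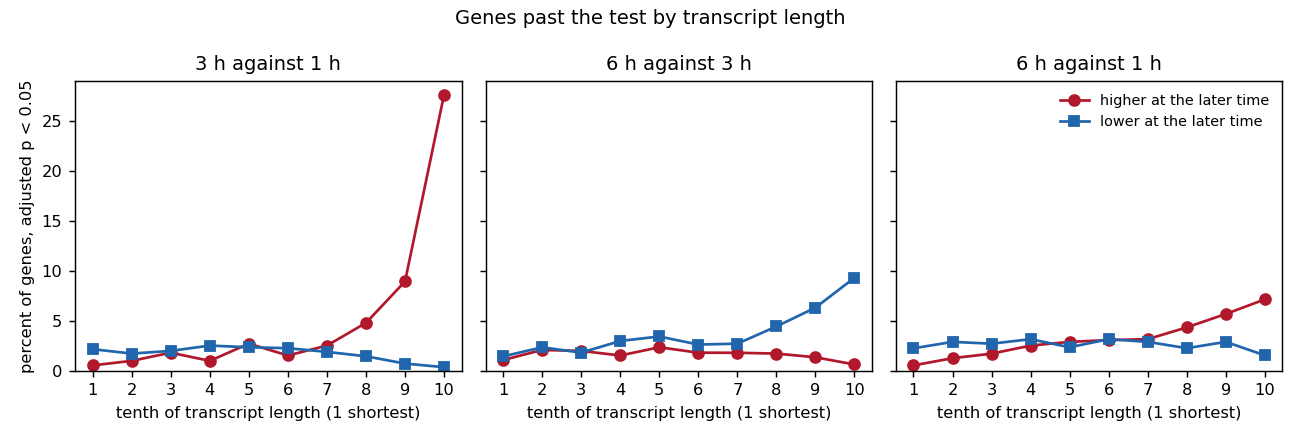
Percent of genes that passed an adjusted p of 0.05, higher (circles) or lower (squares) at the later time, in each of 10 classes of transcript length from the shortest (1) to the longest (10), for the 3 comparisons. The share that rose from 1 h to 3 h climbs to 27.6% in the longest class, and the share that fell from 3 h to 6 h climbs to 9.3%.

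The longest transcripts gave 2 of the largest rises. Ttn (chr2:76703980-76982547, minus strand), for the giant sarcomere spring titin, measured 11.5, 14.9, 22.7 and 23.7 CPM at 1 h and 16.5, 27.5, 49.9 and 32.2 at 3 h. The times overlapped. Both 3 h wells lay above both 1 h wells in each experiment, which the naming rule required. The log2 fold change of 0.79 (SE 0.207, adjusted p = 0.0375) was 0.23 with the length and GC offset (adjusted p = 0.0871), and the call was also lost under DESeq2 (adjusted p = 0.0586) and without the experiment term (adjusted p = 0.128). Kcnq1ot1 (chr7:143203458-143296549, minus strand), a long noncoding RNA that lies antisense to Kcnq1, measured 2.29, 2.47, 2.98 and 2.8 CPM at 1 h and 2.69, 4.18, 5.45 and 3.85 at 3 h. Its change of 0.62 (SE 0.169, adjusted p = 0.0461) was 0.09 with the offset (adjusted p = 0.623). Whether the counting used strand is not given in the sources used here, so its reads and those of Kcnq1 cannot be told apart. Both calls were lost without 1 h replicates 7 or 8, 3 h replicates 8, 9 or 10 or 6 h replicate 9, with adjusted p up to 0.165 for Ttn and 0.179 for Kcnq1ot1, and the latter also without 1 h replicate 10 or 6 h replicate 8.

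Notch2 and Notch3 rose from 1 h to 3 h and fell from 3 h to 6 h. Notch carries signals between touching cells and holds muscle precursors undifferentiated through the Hes and Hey repressors. Of 13 tested members 3 rose from 1 h to 3 h, namely the receptors Notch1, Notch2 and Notch3, and the repressor Hes1 fell. The median was 0.12, and without 1 h replicate 7 none of the 3 receptors passed. These receptors are among the genes refitted with the length and GC offset, and the values that no longer passed are counted below. The part of the length tilt in their rise was not itself tested. From 3 h to 6 h 5 of 13 fell, namely Notch2, Notch3, the repressors Hey1 and Heyl, and Lfng, which modifies Notch receptors. The median was -0.10 against 0.0014 over all genes, and 4 to 6 members fell when one library was left out. From 1 h to 6 h Hes1 and Lfng fell.

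Notch3 (chr17:32120820-32166852, minus strand) measured 46.8, 50.2, 51.3 and 59.5 CPM at 1 h, 63.3, 65.7, 65.7 and 65.5 at 3 h, and 52.9, 55.3, 46.7 and 45.7 at 6 h. The 3 h libraries sat above all others, with changes of 0.33 (SE 0.0662, adjusted p = 0.0119) and -0.38 (SE 0.0666, adjusted p = 0.00457). Heyl (chr4:123233556-123249875, plus strand) was low throughout, at 0.748, 0.893, 1.84 and 1.98 CPM at 1 h, 2.27, 1.43, 2.11 and 2.18 at 3 h, and 1.04, 0.677, 0.81 and 0.858 at 6 h. Its 6 h libraries lay below its 3 h libraries, with the log2 fold change at -1.22 (SE 0.233, adjusted p = 0.00726), while the 1 h libraries overlapped both times.

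Muscle genes moved in both directions: the precursor factors Myf5 and Pax7 rose after 1 h, while Myog, Myod1 and Acta1 fell from 3 h to 6 h. Of 22 tested members 2 rose from 1 h to 3 h, 3 fell from 3 h to 6 h, and 2 rose and 2 fell from 1 h to 6 h. The shares of all genes in that order were 4.02%, 2.99%, 2.48% and 2.06%. The medians were 0.08, -0.33 and -0.30, and most members are at low levels in myoblasts. Myf5 (chr10:107482908-107486134, minus strand), a determination factor of muscle precursors, measured 40.5, 40.8, 38.1 and 38.8 CPM at 1 h, 53.3, 51, 46.6 and 45 at 3 h, and 53.1, 54.4, 45.6 and 46.3 at 6 h. All 1 h libraries lay below all later ones, and Myf5 rose by 0.31 (SE 0.0325, adjusted p = 0.000644) to 3 h and by 0.33 (SE 0.0322, adjusted p = 5.7e-05) to 6 h. Pax7, the factor that marks muscle stem cells, rose by 0.14 in both comparisons with 1 h (adjusted p = 0.0367 and 0.0395), calls that were lost when any of 7 or 8 libraries was left out. Myod1 averaged 107 ± 9.5, 110 ± 8.29 and 99.5 ± 6.23 CPM and fell by 0.15 from 3 h to 6 h (adjusted p = 0.0181), which reached 0.0735 without 3 h or 6 h replicate 7 or 10 or 6 h replicate 8.

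Myog (chr1:134289989-134292548, plus strand), the factor that starts terminal differentiation, measured 0.957, 1.07, 1.88 and 2.49 CPM at 1 h, 1.99, 1.31, 3.09 and 3.35 at 3 h, and 1.01, 0.933, 0.764 and 0.669 at 6 h. Every 6 h library was below every 3 h library, and the 1 h libraries of B31 lay above those of B27. The log2 fold change from 3 h to 6 h was -1.45 (SE 0.254, adjusted p = 0.00402), with -0.75 in B27 and -2.16 in B31. Acta1 (chr8:123891769-123894751, minus strand), for skeletal alpha-actin, measured 5.28, 5.41, 4.82 and 6.68 CPM at 1 h, 5.4, 4.48, 5.04 and 5.24 at 3 h, and 3.43, 2.87, 3.19 and 3.19 at 6 h. The 6 h libraries were the lowest 4 of the 12, with log2 fold changes of -0.66 (adjusted p = 0.00154) from 3 h and -0.80 (SE 0.0991, adjusted p = 0.000283) from 1 h. The troponin gene Tnnc1 fell by 0.38 from 1 h to 6 h (adjusted p = 0.0364), a call lost without any of the 1 h replicates 7, 8 and 10 or any 6 h library. The summed level of 6 markers of differentiated muscle was 5.91 to 12.7 CPM at 1 h, 7.06 to 12.7 at 3 h and 5.36 to 6.94 at 6 h, and its part in these differences was not tested. In such bulk RNA, fewer cells of a type and less RNA per cell cannot be told apart.

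Targets of YAP and SRF, which answer to cell tension and density, moved in both directions. Of 20 tested members 4 rose and 3 fell from 1 h to 3 h, 3 fell from 3 h to 6 h, and 2 rose and 7 fell from 1 h to 6 h, with a median of -0.05 in the last. Ctgf (chr10:24595442-24598683, plus strand), for the secreted connective tissue growth factor, measured 49, 48.7, 39.6 and 38.8 CPM at 1 h, 40.6, 35.9, 34.5 and 30 at 3 h, and 26.2, 22.2, 28.5 and 23.2 at 6 h. The 6 h libraries lay below the other 8, and Ctgf fell in each comparison, by 0.32 (adjusted p = 0.0338), by 0.48 (adjusted p = 0.00462) and over the whole span by 0.80 (SE 0.0835, adjusted p = 9.09e-05). The first of these was lost without 1 h replicates 7 or 8 or 3 h replicates 8, 9 or 10 (adjusted p up to 0.134). Cyr61 (chr3:145646976-145649981, minus strand), which encodes a matricellular protein of the same family, rose instead, from 199, 197, 202 and 204 CPM at 1 h to 238, 236, 217 and 215 at 3 h, and averaged 236 ± 4.13 at 6 h. Its 1 h libraries were the lowest 4, with a rise of 0.24 (SE 0.0303, adjusted p = 0.000366) to 6 h.

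Among the smooth muscle and cytoskeletal targets of SRF, Tagln measured 89, 88.4, 79.7 and 77.4 CPM at 1 h and 65.3, 59, 71.4 and 63.6 at 6 h, a fall of 0.37 without overlap (adjusted p = 0.00123). Cnn1, for calponin, fell by 0.53 over the same span (adjusted p = 0.00579), and Acta2, Actn1, Myl9 and Ankrd1 fell as well. The number that fell from 1 h to 6 h was 4 without 1 h replicates 7 or 8 or 6 h replicates 7 or 8, and 9 without 1 h replicate 9 or 6 h replicate 9.

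Of 17 tested TGF-beta and BMP genes 6 fell from 1 h to 6 h and 0 rose, with a median of -0.13 against -0.0027 over all genes, and 5 to 7 fell when one library was left out. Among them were the target repressors Id1, Id2 and Id3, the feedback inhibitor Smad7 and the activin subunit Inhba. Id1 averaged 63 ± 8.74, 57.6 ± 3.32 and 51.8 ± 3.58 CPM, a fall of 0.28 over the span (adjusted p = 0.00426).

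Txnip and Lgr6 were called lower at 6 h outside those groups. Txnip (chr3:96557957-96561883, plus strand) encodes a thioredoxin-binding protein that restrains glucose uptake and whose transcription follows intracellular glucose. It measured 26.5, 26.2, 30.9 and 29.3 CPM at 1 h, 24.9, 23.8, 29.3 and 28 at 3 h, and 16.4, 16.7, 19.9 and 19.4 at 6 h. The 6 h libraries lay below the other 8, and the fall came after 3 h, at -0.09 (adjusted p = 0.105) to 3 h, -0.55 (SE 0.0334, adjusted p = 5.84e-07) from 3 h and -0.64 (SE 0.0328, adjusted p = 4.46e-08) over the span. The falls were -0.67 in B27 and -0.62 in B31. Of the 4 other tested genes of the glucose sensing list none passed in any comparison.

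Lgr6 (chr1:134983301-135105276, minus strand), a receptor for R-spondins that amplify Wnt signals, measured 7.72, 5.97, 3.54 and 3.76 CPM at 1 h, 6.74, 5.06, 3.33 and 2.57 at 3 h, and 3.64, 2.82, 2.24 and 1.11 at 6 h. The B27 wells were higher than the B31 wells at each time. In each experiment the 6 h wells lay below the other 4, as the naming rule required. The log2 fold change over the span was -1.09 (SE 0.161, adjusted p = 0.00124), with -1.08 in B27 and -1.10 in B31. Fibcd1 (chr2:31813290-31846005, minus strand), for a membrane receptor of acetylated sugars such as chitin, measured 8.69, 9.82, 5.81 and 7.14 CPM at 1 h and 5.19, 5.66, 4.21 and 4.34 at 6 h, without overlap (-0.69, SE 0.0764, adjusted p = 0.00012). Lce1g (chr3:92750148-92752338, minus strand), a late cornified envelope gene, fell from 4.12 ± 0.274 to 2.63 ± 0.268 CPM (-0.65, SE 0.0878, adjusted p = 0.000633). Other transcripts, above all of Lce1j, hold 36.2% of its stretches of 31 bases, so its reads may be split.

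Further calls stood on genes with near-identical copies and are uncertain. Gm8113 (chr14:43925390-43933411, plus strand) measured 4.14 ± 0.668 CPM at 1 h and 2.72 ± 0.101 at 3 h (-0.61, SE 0.112, adjusted p = 0.00714). Other transcripts hold 57% of its stretches of 31 bases. The processed pseudogene Gm6741 (chr17:91236811-91237557, plus strand) had the largest qualifying rise from 3 h to 6 h (0.88, SE 0.192, adjusted p = 0.016), and all of its sequence (100%) is held by other transcripts, above all of Nanp. Gm29609 (chr5:31144739-31179911, minus strand) rose by 0.81 (SE 0.218, adjusted p = 0.0492), and shares 83.3%, mostly with Gtf3c2. The call of Gm6741 was lost without 3 h or 6 h replicate 10 (adjusted p up to 0.0617), and that of Gm29609 without any of 7 libraries (up to 0.159): 1 h replicates 7 and 8, 3 h replicates 8 to 10, and 6 h replicates 7 and 10.

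**Figure D4:**
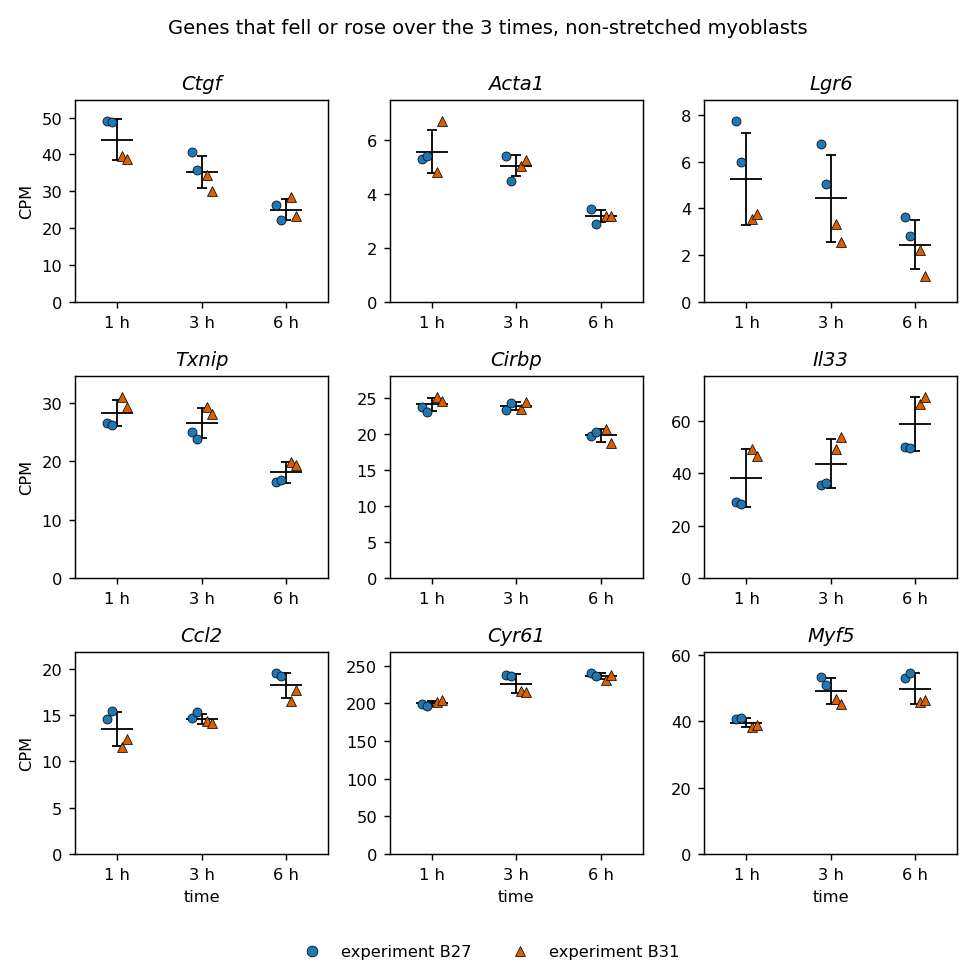
CPM of 9 genes in each of the 12 non-stretched myoblast libraries at 1 h, 3 h and 6 h, circles for experiment B27 and triangles for B31, with the mean and SD of the 4 libraries. For Ctgf, Acta1, Txnip and Cirbp all 4 libraries at 6 h lie below the other 8, for Il33 and Ccl2 all lie above the 1 h libraries, and for Cyr61 and Myf5 the 1 h libraries are the lowest 4.

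Chemokines recruit immune cells, and NF-kappaB controls many of their genes. Of 15 tested members of the chemokine and NF-kappaB list 6 rose from 1 h to 6 h and 0 fell, with a median of 0.05 against -0.0027 over all genes, and 5 or 6 rose when one library was left out. They were Ccl2, Ccl7, Cxcl1, Cxcl5, Cxcl12 and the adhesion molecule Vcam1. The NF-kappaB genes of the list, Nfkb1, Nfkb2, Relb, Nfkbia, Nfkbie and Tnfaip3, passed in no comparison, and Ptgs2 fell from 3 h to 6 h. Ccl2 (chr11:82035571-82037453, plus strand), which attracts monocytes, measured 14.6, 15.4, 11.5 and 12.4 CPM at 1 h, 14.7, 15.3, 14.3 and 14.1 at 3 h, and 19.5, 19.2, 16.5 and 17.7 at 6 h. All 6 h libraries lay above the other 8 (0.44, SE 0.0498, adjusted p = 0.000139). Cxcl5 rose by 0.50 (adjusted p = 0.00072) and Ccl7 by 0.45 (adjusted p = 0.000487) over the span. Il33 (chr19:29925114-29960718, plus strand), an alarmin cytokine that was not on the list, measured 29.1, 28.2, 49.2 and 46.5 CPM at 1 h, 35.4, 36.4, 49.1 and 53.9 at 3 h, and 50, 49.6, 66.5 and 69 at 6 h. The B31 wells were higher than the B27 wells at each time, and Il33 rose by 0.21 (adjusted p = 0.0294), by 0.43 (adjusted p = 0.000215) and over the span by 0.64 (SE 0.0505, adjusted p = 8.09e-06). The first of these calls was lost without 1 h replicates 7 or 8 or 3 h replicates 7, 8 or 10 (adjusted p up to 0.128), and without the experiment term none of the 3 passed (adjusted p = 0.663, 0.281 and 0.095). The macrophage markers given above summed to 1.22 to 1.48 CPM at 1 h and 1.15 to 1.5 at 6 h.

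Cholesterol is made by the sterol pathway and taken up from serum. Of 24 tested members of sterol biosynthesis and uptake 10 rose from 1 h to 6 h and 0 fell, with a median of 0.09, and 18 of 24 were higher in both experiments. Over that span 2.48% of all genes rose and 2.06% fell. Msmo1, a demethylating enzyme of the pathway, rose by 0.19 (adjusted p = 0.000937), and the isomerase Idi1 rose by 0.16 (adjusted p = 0.0103). The count was 3 without 1 h replicate 7 or 6 h replicates 7, 8 or 10, was also lower by over 1.5 times without 1 h replicate 8, and was 12 without 1 h replicate 9.

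Targets of ATF4, the factor of the amino acid and stress response, moved in both directions. Of 30 tested members 3 rose and 6 fell from 1 h to 3 h, 1 rose and 1 fell from 3 h to 6 h, and 3 rose and 4 fell from 1 h to 6 h. The shares of all genes were 4.02% and 1.37%, 1.27% and 2.99%, and 2.48% and 2.06%. The list medians were -0.07, -0.01 and -0.07. Sesn2, a stress-induced inhibitor of mTORC1 signalling, measured 20.3, 19.6, 19.3 and 22.9 CPM at 1 h, 25.6, 27, 26.1 and 27.3 at 3 h, and 25.5, 25, 26.5 and 26.3 at 6 h. The 1 h libraries were the lowest 4 (0.37, SE 0.045, adjusted p = 0.00157 at 3 h). Asns, for asparagine synthetase, measured 107, 105, 98.7 and 109 CPM at 1 h, 93, 88.2, 89.2 and 93.8 at 3 h, and 90.6, 86.2, 91.8 and 92.1 at 6 h. Its 1 h libraries were the highest 4 (-0.20, SE 0.034, adjusted p = 0.00512 at 3 h). The glutathione-degrading enzyme Chac1 rose by 0.48 over the span (adjusted p = 0.00202), while the serine synthesis enzyme Psph fell by 0.25 (adjusted p = 0.00172). The number that fell from 1 h to 3 h was 2 without 1 h replicates 7 or 8 or 3 h replicates 8 or 9, and 14 without 1 h replicate 9.

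Some proliferation genes passed the test in the myoblasts. Of 22 genes of G1/S and DNA replication 2 fell from 1 h to 6 h, against 2.06% of all genes. Of 24 of G2/M and mitosis 5 rose, against 2.48% of all genes. The medians were -0.04 and 0.05. From 3 h to 6 h 6 of the 24 rose, against 1.27% of all genes, among them the kinases Aurka and Aurkb and cyclin B1 (Ccnb1). The number was 0 without 3 h replicate 9 and 12 without 1 h replicate 9. It moved over 1.5 times also without 3 h replicates 8 or 10 or 6 h replicates 9 or 10.

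The circadian clock genes moved in both directions. Of 23 tested members 1 rose and 2 fell from 1 h to 3 h, 3 rose and 1 fell from 3 h to 6 h, and 4 rose and 4 fell from 1 h to 6 h. The shares of all genes were 4.02% and 1.37%, 1.27% and 2.99%, and 2.48% and 2.06%. Over the span the output factors Dbp and Tef and the repressors Nr1d1 and Nr1d2 rose, and Arntl, the repressors Cry1 and Cry2, and Bhlhe40 fell. The median was 0.01, with 9 members higher and 9 lower in both experiments. B31 alone gave none that passed edgeR's test. Without 1 h replicate 7 only 1 fell, and the number that fell was also lower by over 1.5 times without 1 h replicate 8 or 6 h replicate 7.

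Dbp (chr7:45705088-45710203, plus strand), which activates genes with D-boxes, measured 2.96, 3.02, 3.55 and 2.98 CPM at 1 h, 3.58, 3.24, 3.13 and 4.3 at 3 h, and 4.87, 5.4, 4.04 and 4.51 at 6 h. The 1 h and 6 h libraries did not overlap (0.58, SE 0.112, adjusted p = 0.00846), with 0.78 in B27 and 0.38 in B31. Nr1d1 (chr11:98767932-98775333, minus strand), for the repressor REV-ERB alpha, measured 38.5, 38.6, 33.7 and 37.1 CPM at 1 h, 40.4, 40.9, 35.5 and 37.9 at 3 h, and 50.2, 50.5, 42.6 and 42.4 at 6 h. All 6 h libraries lay above the other 8, and the rise came between 3 h and 6 h (0.26, adjusted p = 0.000629). Arntl (chr7:113207465-113314126, plus strand), for the activator BMAL1, measured 28.3, 27.4, 28.1 and 27.5 CPM at 1 h, 25.5, 25, 27.7 and 26.6 at 3 h, and 22.6, 25, 24.9 and 26 at 6 h. The 6 h libraries lay below the 1 h libraries (-0.18, SE 0.0381, adjusted p = 0.0148), and without 1 h replicates 7 or 8 or 6 h replicate 7 the adjusted p reached 0.0663.

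Cry2 (chr2:92403646-92434043, minus strand) fell early, from 10.8, 10.3, 9.77 and 9.87 CPM at 1 h to 7.11, 7.43, 7.91 and 8.76 at 3 h, and stood at 8.33, 8.13, 8.48 and 8.09 at 6 h. The 1 h libraries were the highest 4 (-0.39, SE 0.062, adjusted p = 0.00409 at 3 h). Nr1d2, for REV-ERB beta, rose by 0.20 over the span (adjusted p = 0.00443) and Tef by 0.16 (adjusted p = 0.0365), which reached 0.151 without 1 h or 6 h replicates 7 or 8 or 3 h replicate 8. Per2, a core repressor, rose by 0.27 from 3 h to 6 h (adjusted p = 0.0494), a call lost when any of 10 libraries was left out, while Per1 had a log2 fold change of -0.02 over the span (adjusted p = 0.839).

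The promoters of clock genes are shown because the E-box bound by the Arntl and Clock proteins, the ROR element bound by the Nr1d repressors and ROR activators, and the D-box bound by Dbp and Tef are the sites through which these arms act on one another. Each is 300 bases from RefSeq on GRCm38.p6, from 250 before to 50 after an annotated start, on the gene's strand. Capitals mark a motif found on either strand: E-box CACGTG, D-box TTATGTAA, ROR element AGGTCA. Dbp passed the fold limit, while the other 4 were chosen after their values were seen, and each of those holds a motif. The windows of Nr1d1 and Cry2 and another window of Arntl, not shown, hold none of these motifs. Those of Bhlhe41 and another window of Tef, also not shown, hold an E-box.
Dbp, chr7:45704997-45705296, plus strand, none of these motifs: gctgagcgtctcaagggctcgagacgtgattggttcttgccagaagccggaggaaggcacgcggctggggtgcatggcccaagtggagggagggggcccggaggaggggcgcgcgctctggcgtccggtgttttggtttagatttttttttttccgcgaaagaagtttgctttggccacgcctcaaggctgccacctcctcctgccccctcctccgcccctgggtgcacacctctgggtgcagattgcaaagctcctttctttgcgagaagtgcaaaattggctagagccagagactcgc
Tef, chr15:81802423-81802722, plus strand, E-box: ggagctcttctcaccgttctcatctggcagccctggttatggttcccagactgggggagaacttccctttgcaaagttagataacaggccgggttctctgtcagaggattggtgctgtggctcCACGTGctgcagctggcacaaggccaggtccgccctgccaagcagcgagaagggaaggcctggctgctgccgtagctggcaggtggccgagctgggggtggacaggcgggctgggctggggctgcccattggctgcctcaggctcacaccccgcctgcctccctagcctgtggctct
Cry1, chr10:85185005-85185304, minus strand, E-box: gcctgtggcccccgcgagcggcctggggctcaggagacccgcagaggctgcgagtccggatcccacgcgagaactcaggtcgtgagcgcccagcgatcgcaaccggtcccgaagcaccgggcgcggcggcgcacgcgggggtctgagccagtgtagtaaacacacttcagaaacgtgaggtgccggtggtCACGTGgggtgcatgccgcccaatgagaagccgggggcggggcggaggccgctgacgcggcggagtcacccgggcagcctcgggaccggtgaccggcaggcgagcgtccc
Nr1d2, chr14:18239057-18239356, minus strand, ROR element: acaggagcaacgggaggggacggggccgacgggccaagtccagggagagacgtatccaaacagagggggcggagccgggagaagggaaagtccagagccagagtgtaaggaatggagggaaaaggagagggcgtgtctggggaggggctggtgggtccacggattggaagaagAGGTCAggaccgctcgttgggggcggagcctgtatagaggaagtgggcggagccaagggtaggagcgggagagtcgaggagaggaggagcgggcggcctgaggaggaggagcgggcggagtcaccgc
Arntl, chr7:113207261-113207560, plus strand, ROR element: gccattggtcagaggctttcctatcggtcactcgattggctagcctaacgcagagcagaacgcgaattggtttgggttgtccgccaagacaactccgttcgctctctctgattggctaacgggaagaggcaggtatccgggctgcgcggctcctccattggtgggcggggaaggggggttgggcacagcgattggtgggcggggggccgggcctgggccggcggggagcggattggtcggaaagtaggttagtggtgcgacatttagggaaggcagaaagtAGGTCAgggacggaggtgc

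Among 9 clock members past the test in any comparison other than Dbp, 7 matched the promoter table, with 9 promoters in all, and 6 of these promoters, of 5 genes, held at least one of the motifs. Over all 32851 promoters of this length 7.15% hold the E-box, 0.938% the D-box and 16.3% the ROR element. A match describes the letters in the window and does not show binding.

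**Figure D5:**
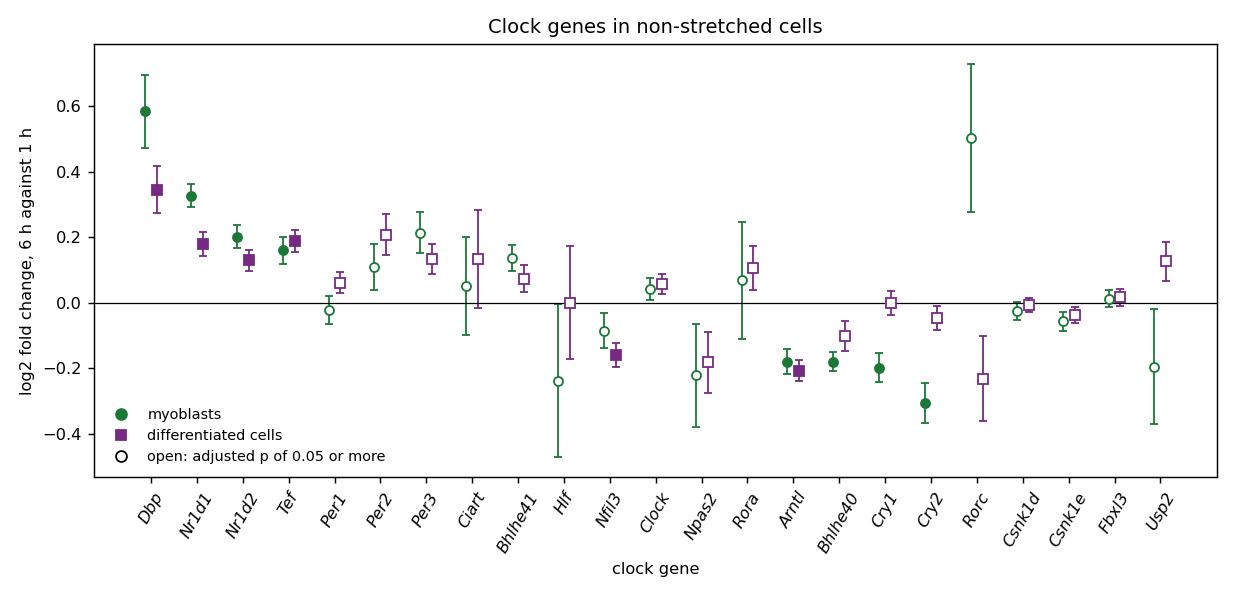
Log2 fold change of the 23 clock genes from 1 h to 6 h with its SE, in non-stretched myoblasts (circles) and, from a separate fit, non-stretched differentiated cells (squares), filled where the adjusted p was under 0.05. In both kinds of cells Dbp, Nr1d1, Nr1d2 and Tef are filled above 0 and Arntl is filled below 0.

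The non-stretched differentiated cells, C2C12 cells after days in a low-serum differentiation medium, gave the same comparisons in 12 libraries of experiments B25 and B28. They were counted in a separate table and share no library with the myoblasts, and no test was made between the stages. Of 15813 genes tested there 332 rose and 413 fell from 1 h to 6 h, while 10 rose and 2 fell from 1 h to 3 h. From 3 h to 6 h edgeR found 0 and 0, with 1645 at an unadjusted p under 0.05. Over the span 4 clock genes rose and 2 fell, with Dbp at 0.34 (adjusted p = 0.0178), Nr1d1 at 0.18 (adjusted p = 0.0188), Nr1d2 at 0.13 (adjusted p = 0.0345), Tef at 0.19 (adjusted p = 0.0102) and Arntl at -0.21 (adjusted p = 0.00691).

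No matrix gene of 22 passed from 3 h to 6 h in the differentiated cells, with a median of -0.06. Txnip had a log2 fold change of -0.14 over the span (adjusted p = 0.0825) and fell by 0.32 from 1 h to 3 h (adjusted p = 0.0178). Cyr61 rose by 0.27 over the span (adjusted p = 0.00783). Of the proliferation genes 17 of 22 of G1/S and 16 of 24 of G2/M fell from 1 h to 6 h in the differentiated cells, with medians of -0.28 and -0.45.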

How the data were processed

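RNA of the 48 libraries was sequenced as stranded poly(A) mRNA libraries, paired-end. Per the labels, the authors used STAR, Salmon and DESeq2 with mm10, and the deposited tables hold estimated counts per gene symbol as whole numbers, 1 column per library, not normalized. For the 12 non-stretched myoblast columns, genes were filtered (edgeR 4.0.16, filterByExpr by time), scaled (TMM) and fitted with time and experiment by quasi-likelihood in R 4.3.3, with p-values adjusted over all 15213 genes (Benjamini-Hochberg). A call needed an adjusted p under 0.05 and an absolute log2 fold change of at least 0.58. Named genes were the 5 largest called rises and falls per comparison with a mean of 100 counts and both wells on one side in each experiment, plus list members. For genes named by size, that order of the wells was therefore set by the choice. The members and the 29 gene lists were chosen with earlier results of these data known. Transcript lengths and gene coordinates came from GENCODE on GRCm38 and matched 96.7% of tested genes. In data simulated for 6 h against 1 h over 15213 genes, 89.9% of 99 genes changed by a log2 of 1 and 74% of 100 changed by 0.5 passed, with 3 false. The simulated libraries were independent, without a difference between experiments or a length or GC tilt. The simulation therefore does not give the number of false calls in the real libraries. Alternatives included limma 3.58.1, DESeq2 1.42.0, other filters and scalings, single experiments and left-out libraries.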

Additional observations from a re-analysis of the deposited data

Results flagged for a closer look

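Within groups of 4 libraries, single libraries lay far from the other 3 by Dixon's test at its 95% value for 6 of 219 gene and time groups, where chance flags about 1 in 20 groups. Chac1 measured 10.6 CPM in 1 h replicate 10, above 7.66 to 7.8 in the others, and Dbp measured 3.55 CPM in 1 h replicate 9, above 2.96 to 3.02. Fbn1, for the microfibril protein fibrillin 1, measured 95.6 CPM in 6 h replicate 10, below 122 to 127. Notch3 measured 63.3 CPM in 3 h replicate 7, below 65.5 to 65.7, and Psph measured 26.3 CPM in 3 h replicate 8, below 27.3 to 27.5. Per2 measured 6.22 CPM in 3 h replicate 10, beside 6 in each of the others, a gap that is small in size. The same test marked 3 of 21 groups of library measures: the GC tilt of -0.212 in 1 h replicate 9, the ribosomal RNA share of 3.66% in 1 h replicate 7, and a share of 15.4% of counts in the 50 most abundant genes in that library, against 12.6% in the other 1 h libraries.

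The libraries of the mitotic kinase gene Aurkb moved in opposite directions in the 2 kinds of cells. From 1 h to 6 h its log2 fold change was 0.124 in non-stretched myoblasts (adjusted p = 0.0165), with every 6 h library above every 1 h library, and -0.58 in non-stretched differentiated cells (adjusted p = 0.0145), with every 6 h library below every 1 h library. It was one of 16 of 24 G2/M genes that fell in the differentiated cells, and the difference between the stages was not tested.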

How the results depend on the processing

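Of 301 values of named genes and list members past the test, none changed sign under any alternative. These values were chosen for passing in the 12 libraries that the alternatives reuse, so a change of sign was unlikely from the start. For genes named by size, the rule on the wells also set the direction within each experiment. Without the experiment term 160 no longer passed, with B31 alone 270, with B27 alone 85, with the wells of an experiment summed 80, and with the length and GC offset 19. Under DESeq2 2 of 300 no longer passed, and with one library left out 805 of 3612. Fndc1 and Gm8113 (3 h against 1 h), Spon2 (6 h against 3 h), and Acta1, Ctgf, Dbp, Lce1g and Fibcd1 (6 h against 1 h) passed in every fit with a library left out. Genes at low levels, such as Sp7, Heyl and Myog, rest on fewer counts, and the 2 experiments limit what the wells can show.

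Counts past both limits are given in the order higher and lower at 3 h against 1 h (15 and 7), 6 h against 3 h (9 and 59) and 6 h against 1 h (9 and 31), where they moved by over 1.5 times. Without the experiment term the first and the last 3 were 7, 35, 5 and 15, and 656 genes differed between the times. DESeq2 gave 8, 1 and 4 in the first 3 and 9 time differences that depend on the experiment. With no filter on low counts they were 62, 51, 37, 117, 43 and 73, with 2184 genes between the times. Testing against the fold limit itself (glmTreat) gave 1, 0, 0, 0, 1 and 0, and no fold limit gave 612, 208, 193, 455, 377 and 314. B27 alone gave 23 and 12 at 3 h, 14 lower at 6 h against 3 h and 19 higher at 6 h against 1 h. B31 alone gave 0 and 0, then 2 higher, then 0 and 2, and 41 between the times. At least 10 counts in every library gave 4 lower at 3 h and 3 higher at 6 h against 3 h. Summed wells gave 14 and voom 16 lower at 3 h, voom 20 and the length and GC offset 15 higher at 6 h against 1 h, and the 8 libraries of those times alone 20 lower. In the differentiated cells at 6 h against 1 h (8 and 22), no experiment term gave 2 and 13, DESeq2 5 higher and the strict filter 4 higher, and at 6 h against 3 h DESeq2 gave 1 and 2.

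With one library left out the 6 counts ranged from 4 to 29, 1 to 15, 3 to 11, 34 to 67, 2 to 20 and 16 to 47, and the genes between the times from 731 to 2579. In the differentiated cells they ranged from 0 to 2 and 0 to 2 at 6 h against 3 h and from 1 to 15 and 7 to 56 at 6 h against 1 h, and were 0 and 0 in each at 3 h against 1 h. The cause of these moves was not tested. The replicate numbers are shared between times, and deviations of same-numbered wells from their time mean correlated at -0.0377 to 0.184. Wells of different numbers were not set beside these, so whether the number pairs wells was not tested. The replicate block gave 16 and 10, 9 and 60, and 13 and 32, 1987 genes between the times, and 5 higher in the differentiated cells at 6 h against 1 h.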

Other observations

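In 4 lists of lipid, chaperone and splicing genes not described above, no member was called with the fold limit. The counts here are of members past the adjusted p alone. Of 17 genes of fatty acid synthesis and LXR targets 3 rose from 1 h to 3 h and 3 from 1 h to 6 h, and 0 fell in either, with the desaturase genes Scd1 and Scd2 in both. Of 18 genes of endoplasmic reticulum folding 3 fell from 1 h to 3 h and 3 rose from 3 h to 6 h, with the chaperone Hspa5 and Creld2 in both. Of 17 heat shock genes 2 fell from 1 h to 3 h, and the chaperones Hspa8 and Hsph1 that fell then rose from 3 h to 6 h, when 3 rose and the small heat shock gene Hspb1 fell. Hspa8 fell by 0.11 (adjusted p = 0.0247) and rose by 0.10 (adjusted p = 0.0342). Of 18 genes of SR proteins and their kinases, which steer splice site choice, 4 rose from 3 h to 6 h, namely Srsf7, Srsf10, Tra2a and Tra2b, with a median of 0.06 against 0.0014 over all genes.

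Immediate early genes, which answer serum and stress within minutes, gave 3 that rose and 2 that fell of 27 from 1 h to 3 h, and 6 that fell from 3 h to 6 h. The shares of all genes in that order were 4.02%, 1.37% and 2.99%. Egr1 rose by 0.16 (adjusted p = 0.00551) and then fell by 0.14 (adjusted p = 0.00942), and Junb fell by 0.15 over the span (adjusted p = 0.00579). The cold-inducible RNA-binding gene Cirbp averaged 24.1 ± 0.925 CPM at 1 h, 23.9 ± 0.564 at 3 h and 19.8 ± 0.85 at 6 h, a fall of 0.28 over the span (adjusted p = 0.000699). The other cold-inducible gene tested, Rbm3, passed in no comparison, with a log2 fold change of -0.0439 over the span. Of 9 tested long noncoding RNAs 2 rose from 1 h to 3 h, H19 and Kcnq1ot1, and 3 fell, Gas5, Snhg1 and Mir17hg. The shares of all genes were 4.02% and 1.37%, and the list median was -0.1. The imprinted H19 rose by 0.36 (adjusted p = 0.00551) and stood 0.28 above 1 h at 6 h (adjusted p = 0.0183). Of 12 NRF2 targets, 12 interferon-stimulated genes and 3 metallothionein and zinc genes none passed edgeR's test in any comparison.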
